A study of Homo sapiens with 6 samples.

Results

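Kinesins are motor proteins that walk along microtubules or take them apart, and kinetochores are the protein assemblies by which chromosomes attach to the spindle in mitosis. The genes described here were taken from the gene symbols of the deposited tables: every KIF and KIFC kinesin, every gene named CENP followed by letters, and 18 named genes of the outer kinetochore, the spindle checkpoint and the mitotic kinases. The rule found 77 of 23228 genes. They fall into 43 kinesins, CENPE included, and 34 other genes of the centromere, kinetochore, checkpoint and mitotic kinases. Centromere proteins listed under older symbols, such as MLF1IP (CENPU) and CENPC1 (CENPC), are not among the 77 and are described with the partner genes.

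RNA was sequenced from Hep3B, an established human hepatocellular carcinoma line, in 2 groups of 3 libraries. Control cells carried a lentiviral shRNA without a target, and cells labelled PELP1-KD carried a lentiviral shRNA against PELP1, a scaffold protein of nuclear receptor and ribosome biogenesis complexes. Both were puromycin-selected, and stable clones were pooled. No source states whether the replicates of a group were separate cultures, so p values measure the spread between these libraries only. The titles name shRNA1, while the protocol lists shRNA1 and shRNA2, and the sources give different kits for RNA extraction and library preparation, with either mRNA selection or removal of ribosomal RNA.

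PELP1, the targeted gene, was measured first. Normalized reads of PELP1 were 4893, 4914 and 5102 for control and 4421, 4825 and 4840.2 in the PELP1-KD-labelled ones. The 2 ranges did not overlap, but PELP1 RNA was at 94.5% of control (log2 fold change −0.082 ± 0.041 SE, adjusted p = 0.101, edgeR), and it was called lower with the replicate number as a block (adjusted p = 0.0106). With the block and a correction for GC and length, its log2 fold change was −0.028 and it was not called (adjusted p = 0.286). So small a difference in RNA does little to check the labels, and libraries are named by them throughout. At the protein level, the paper reports less PELP1 in knockdown Hep3B cells by Western blot with both shRNAs, and in knockdown xenografts by staining. The libraries here hold no protein values. The 6 libraries held 26758363 to 34456542 reads on genes. Hepatocyte markers were high in all 6 libraries, with 859063 to 873567 normalized reads over 8 genes in control and 754608 to 771241 in the others, and 6 of the 8 were called lower and 2 higher. Over 10 markers of blood, endothelial, muscle, stromal and basal cells the sum was 1733 to 1909 in control and 2606 to 2699 in the others, nearly all from CD68 and LUM, while CDH5 and KRT5 had 0 reads in each library. The part of either list in the results below was not tested.

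In a dividing cell, mitotic kinesins slide, cross-link and depolymerize spindle microtubules and carry chromosome arms. The inner kinetochore, built of CENP proteins on CENP-A nucleosomes, holds the outer kinetochore, whose Ndc80 complex binds microtubules. Unattached kinetochores drive the spindle checkpoint, which delays anaphase, and Aurora B in the chromosomal passenger complex releases wrong attachments. Most of these genes are transcribed in G2 and M phase. The other kinesins are all remaining KIF and KIFC genes, many of which carry vesicles, organelles or ciliary cargo in cells at any phase.

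Mitotic members were lower on balance in the PELP1-KD-labelled libraries, and the other kinesins went both ways with more rises than falls. Normalized reads are reads scaled by edgeR's TMM factors, and a gene was called at an adjusted p below 0.05 from edgeR's quasi-likelihood test over all 14537 tested genes. Of the 77 members, 72 were tested. Of these, 40 were called in either direction, against 53.6% of all tested genes. They were 28 lower and 12 higher, against 26.8% and 26.8%. The 48 tested members of the mitotic classes included 22 called lower and 3 higher, with a median log2 fold change of −0.13. The 23 tested kinesins of other roles included 5 called lower and 9 higher, with a median of 0.087, which was 0.048 without PELP1-KD replicate 3 and 0.15 without control replicate 3. The median over all tested genes was 0.0044. The difference between these classes was not tested. In bulk RNA, fewer cells in G2 and M phase and less RNA per cell cannot be told apart. The values of both groups did not overlap for 48 of the 72, against 58.8% of all tested genes. Changes were small. CENPJ, KIF1A and KIF17 were the 3 members changed by at least 2-fold, against 7.65% of all tested genes. All 3 fell (4.79% of all tested genes did), and 0 rose (2.85% did). With the replicate block, 35 members were lower and 15 higher, against 30.4% and 30.4% of all tested genes.

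RNA of the whole chromosomal passenger complex fell. The complex consists of Aurora B kinase (AURKB), the scaffold INCENP, survivin (BIRC5) and borealin (CDCA8). Of these, 4 of 4 were called lower, against 26.8% of all tested genes. BIRC5, on chromosome 17 of hg19 from 76210277 to 76221716, gave 3062, 3165 and 3012 normalized reads in control and 2169, 2251 and 2255 in the PELP1-KD-labelled ones. The means were 3079.7 ± 77.7 and 2225 ± 48.4 (SD, n = 3 each), so BIRC5 RNA was at 72.2% of control (log2 fold change −0.47 ± 0.041 SE, adjusted p = 9.6e-09, edgeR). The study lists RT-qPCR primers for BIRC5. The paper reports that RT-qPCR bore out the regulation by PELP1 of representative genes picked from this RNA-seq. It also reports lower RNA of such genes after the PELP1 inhibitor SMIP34. Its text gives no value for BIRC5, and the choice of genes was not independent of these data. AURKB had 1921, 1829.7 and 2022 in control and 1458, 1476 and 1483 in the others (log2 fold change −0.39 ± 0.048 SE, adjusted p = 1.12e-06). INCENP had 3381, 3496 and 3629 and 2758, 2821 and 3045 (log2 fold change −0.28 ± 0.045 SE, adjusted p = 2.27e-05). Control libraries lay above the others for each of these 3 genes. CDCA8 changed least of the complex (log2 fold change −0.12 ± 0.047 SE, adjusted p = 0.0315), with 2022, 2087 and 2018 against 1843, 1786 and 1988. Its call was lost without control replicate 1, control replicate 2, PELP1-KD replicate 1 or PELP1-KD replicate 2 (adjusted p between 0.0647 and 0.172, edgeR).

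The other mitotic kinases differed among themselves. PLK1, which acts in spindle assembly and cytokinesis, had 3968, 4149 and 4220.1 normalized reads in control and 2946, 2929 and 3127 in the PELP1-KD-labelled libraries (log2 fold change −0.45 ± 0.041 SE, adjusted p = 1.76e-08). Per length it had the highest control level of the 7 genes of this class, 60.3 RPKM (reads scaled by exon length in kilobases and by library size), followed by AURKB with 49.5. AURKA, the Aurora kinase of the centrosomes and spindle poles, was not called, with 3425, 3437 and 3246 against 3309, 3328 and 3332 (log2 fold change −0.020, 95% interval −0.10 to 0.062). AURKB and AURKA, which are close paralogs, thus had intervals that do not overlap, the one for AURKB being −0.49 to −0.29. AURKC, used mainly in germ cells, was rare, at 0.446 RPKM, and its interval of −0.98 to 0.39 is wide.

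Within the outer kinetochore, 3 of 6 genes were called lower and 0 higher, against 26.8% and 26.8% of all tested genes. The median log2 fold change of the 6 was −0.23. The Ndc80 complex has 4 subunits, of which NDC80 and NUF2 reach the microtubule and SPC24 and SPC25 face the inner kinetochore. SPC24, on chromosome 19 of hg19 from 11257831 to 11266484, had 292, 247 and 263 normalized reads in control and 146, 179 and 149.8 in the PELP1-KD-labelled libraries, at 58.9% of control (log2 fold change −0.76 ± 0.11 SE, adjusted p = 4.73e-06). SPC25 had 772, 822 and 768 and 589, 625 and 648 (log2 fold change −0.34 ± 0.062 SE, adjusted p = 0.000106). NUF2 had 589, 611 and 543 and 456, 503 and 433 (log2 fold change −0.33 ± 0.074 SE, adjusted p = 0.000972). These 3 were lower in 3 of 3 libraries. NDC80 was also below control in each library, with 1011, 995 and 1004 against 966, 919 and 938, but was not called (−0.091, adjusted p = 0.144, edgeR, and 0.0825 with the block). In RPKM, control levels of the 4 subunits were 18.6 for SPC25, 14.7 for NDC80, 13.02 for SPC24 and 9.29 for NUF2. In the PELP1-KD-labelled libraries they were 14.7, 13.8, 7.70 and 7.42, so SPC24 passed from a level near that of NDC80 to one near that of NUF2. MIS12 (−0.13, 95% interval −0.28 to 0.018) and DSN1 (0.034, 95% interval −0.098 to 0.17), of the complex that links Ndc80 to the centromere, were not called.

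**Figure D1:**
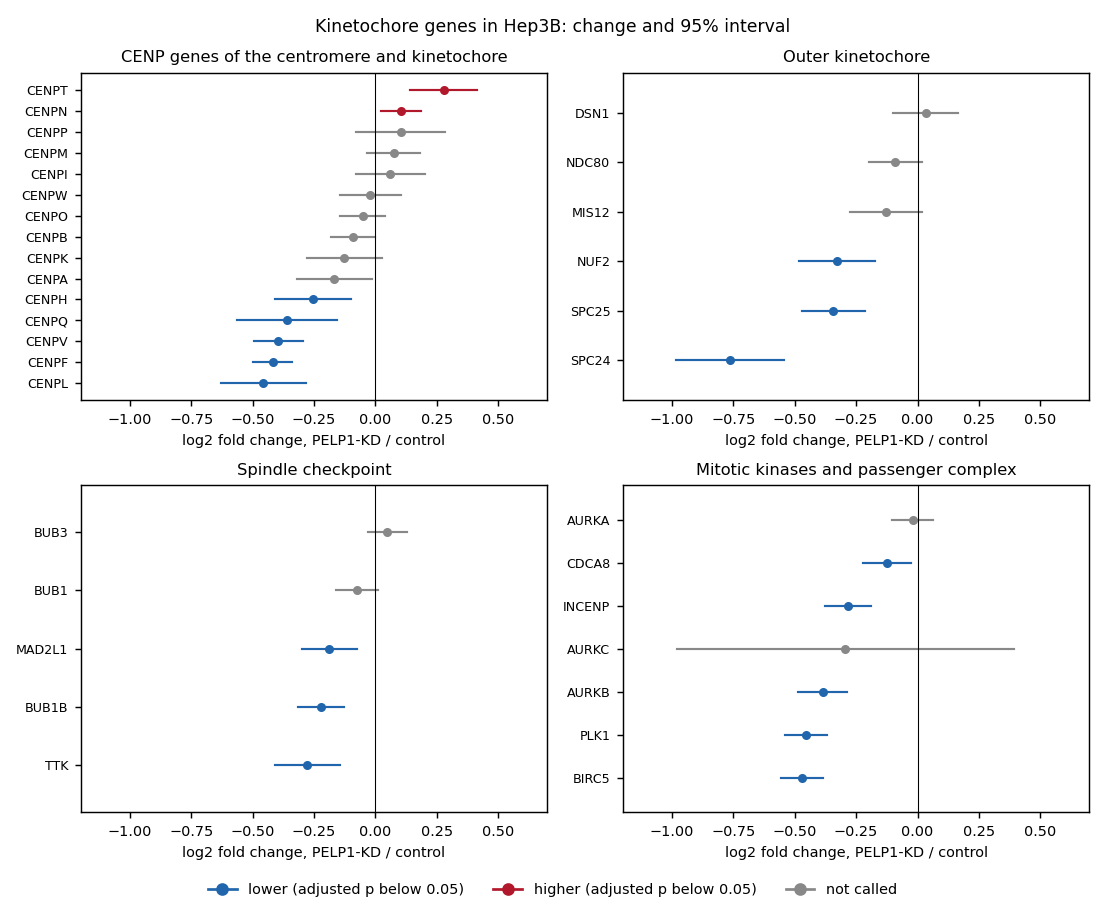
Log2 fold change (x axis, PELP1-KD over control) of 33 tested kinetochore, checkpoint and kinase genes, 1 row a gene, with points for the estimate and bars for the 95% interval, colored by the call at an adjusted p below 0.05. SPC24 at −0.76 lies farthest to the left, and CENPT at 0.28 and CENPN at 0.11 are the 2 genes called higher.

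Of the checkpoint genes, 3 of 5 were called lower and none higher, against 26.8% and 26.8% of all tested genes. The class median of −0.19 became −0.12 without PELP1-KD replicate 3. TTK (MPS1), the kinase that starts the signal, had 1086, 1059 and 965 normalized reads in control and 875, 909 and 788 in the PELP1-KD-labelled libraries (log2 fold change −0.28 ± 0.063 SE, adjusted p = 0.000992). BUB1B, which encodes the BUBR1 subunit of the inhibitor of the anaphase-promoting complex, had 3139.7, 3168 and 3204 and 2899, 2630.1 and 2624 (log2 fold change −0.22 ± 0.044 SE, adjusted p = 0.000286). MAD2L1, the MAD2 subunit of that inhibitor, had 1907, 1896 and 1911 and 1774, 1735 and 1509 (log2 fold change −0.19 ± 0.054 SE, adjusted p = 0.00606). The ranges of control and PELP1-KD did not overlap for these 3. In MAD2L1 and TTK, replicate 3 gave the lowest value of the PELP1-KD libraries. BUB1 was called lower with the block (−0.076, adjusted p = 0.123 without and 0.042 with it, edgeR), but not when GC and length were also corrected (adjusted p = 0.051). BUB3, which carries BUB1 and BUBR1 to the kinetochore, was the most expressed per length at 47.4 RPKM and had 4143, 4183 and 4023 against 4368, 4215 and 4183 reads (0.048, adjusted p = 0.302). Of the exon bases of BUB1B, 4.60% are shared with PAK6 on the same strand.

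CENP genes of the centromere and kinetochore were split. Of 15 tested, 5 were called lower and 2 higher (33.3% and 13.3%, against 26.8% and 26.8% of all tested genes). The share called lower was thus near that of all tested genes. The median of −0.092 was −0.055 to −0.060 without PELP1-KD replicate 1, PELP1-KD replicate 3 or control replicate 3. The large corona protein CENPF, which binds dynein partners, is encoded at 214776532 to 214837914 on chromosome 1 (hg19). Its RNA gave 4904, 4843 and 4749 normalized reads in control and 3733, 3532 and 3587 in the PELP1-KD-labelled libraries (log2 fold change −0.42 ± 0.038 SE, adjusted p = 1.83e-08). CENPV, found at centromeres and the central spindle, had 2226, 2124 and 2139 and 1547, 1666 and 1719.9 (log2 fold change −0.40 ± 0.048 SE, adjusted p = 8.04e-07). CENPL, which with CENPN contacts the CENP-A nucleosome, had 341, 375 and 345 and 273, 249.7 and 249.7 (log2 fold change −0.46 ± 0.083 SE, adjusted p = 0.000109). Each lay below control in 3 of 3 libraries. CENPQ (−0.36, adjusted p = 0.0041) and CENPH (−0.25, adjusted p = 0.00655) were called lower too.

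CENPT and CENPN moved the other way. CENPT, an inner kinetochore protein that recruits Ndc80, had 1533, 1584 and 1824 normalized reads in control and 1856, 1951 and 2180.4 in the PELP1-KD-labelled libraries (log2 fold change 0.28 ± 0.065 SE, adjusted p = 0.00153). Replicate 3 was the highest in each group, and the lowest PELP1-KD value stood just above the highest control value. CENPN had 3276, 3284 and 3136 and 3504, 3450.3 and 3474 (log2 fold change 0.11 ± 0.039 SE, adjusted p = 0.0286), and its call was lost without control replicate 1, control replicate 2, control replicate 3, PELP1-KD replicate 1 or PELP1-KD replicate 2 (adjusted p between 0.0518 and 0.0979, edgeR). CENPN and CENPL bind each other, and here their 95% intervals, 0.024 to 0.19 and −0.63 to −0.28, lay on opposite sides of 0. CENPA, the centromeric histone H3 variant, was not called (log2 fold change −0.17, adjusted p = 0.0622, edgeR), but was called lower with the block (adjusted p = 0.0348). So were CENPK (adjusted p = 0.153 without and 0.0313 with the block) and CENPB (adjusted p = 0.0817 and 0.00377). CENPB, which binds a motif of alpha satellite DNA, had 4882, 4877 and 5166 against 4432, 4614 and 4958, and its log2 fold change of −0.092 became 0.019 when GC content and length were corrected with the block (adjusted p = 0.466). CENPK was then at −0.048 and was not called either (adjusted p = 0.394, edgeR). CENPV and CENPB had the highest control levels per length of this class, 59.1 and 55.7 RPKM. CENPI, CENPM, CENPO, CENPP and CENPW were not called, with log2 fold changes from −0.051 to 0.10. Antisense neighbors share 2108 exon bases with CENPP and 1087 with CENPO, whose counts rest on the strand setting.

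Mitotic kinesins called lower stood at 82.5% to 91.9% of control. Of 16, 15 were tested, and 6 were called lower and 1 higher (40% and 6.67%, against 26.8% and 26.8% of all tested genes). The median log2 fold change was −0.12. KIF11 (Eg5), encoded at 94352825 to 94415152 on chromosome 10 (hg19), pushes spindle poles apart. It had 2168, 2086 and 2018 normalized reads in control and 1823, 1734 and 1709 in the PELP1-KD-labelled libraries, with means of 2091 ± 74.9 and 1755 ± 60.2 (SD, n = 3 each) and a change of −0.35 to −0.16 (95% interval; log2 fold change −0.25 ± 0.046 SE, adjusted p = 0.000111). KIF15, which can take over from KIF11 in keeping a bipolar spindle, had 1205, 1146 and 1081 and 1031, 959 and 959 (log2 fold change −0.22 ± 0.056 SE, adjusted p = 0.00261). KIF14, a kinesin of the cytokinetic midbody, had 1078, 1030.3 and 979 and 870.2, 868 and 809 (log2 fold change −0.28 ± 0.057 SE, adjusted p = 0.000367). The groups did not overlap for these 3. KIF22, a chromokinesin and the most expressed of the class at 54.2 RPKM, had 3575, 3492 and 3648 against 3097, 3220.5 and 3402 (log2 fold change −0.14 ± 0.042 SE, adjusted p = 0.00865). The central spindle kinesins KIF20A (−0.12, adjusted p = 0.0161) and KIF23 (−0.12, adjusted p = 0.022) were also called lower. The call of KIF20A was lost without control replicate 1 or PELP1-KD replicate 2 (adjusted p between 0.0626 and 0.0731, edgeR), and that of KIF23 without control replicate 1, control replicate 2 or PELP1-KD replicate 2 (adjusted p between 0.0549 and 0.153, edgeR).

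KIF2A, a microtubule depolymerase with work at the spindle poles and in non-dividing cells, rose. It had 2862, 2985 and 2793 normalized reads in control and 3294, 3297 and 3042 in the PELP1-KD-labelled libraries (log2 fold change 0.16 ± 0.044 SE, adjusted p = 0.00524). Its paralog KIF2C (MCAK), which corrects attachments at centromeres, was not called (−0.066, 95% interval −0.16 to 0.031), and KIF2B had 0 reads in 6 of 6 libraries, which allows up to 3 reads in each, by counting error only. KIF18A, which dampens chromosome oscillations, had a log2 fold change of −0.0059 (95% interval −0.14 to 0.12). KIF18B (adjusted p = 0.0783 and, with the block, 0.0131), KIF20B (0.131 and 0.00537) and CENPE (0.2 and 0.0434, edgeR) were not called without the block and were called lower with it. Without the block, each was also called lower when certain libraries were left out, KIF18B without PELP1-KD replicate 3 (adjusted p = 0.00442, edgeR), KIF20B without control replicate 3 or PELP1-KD replicate 1 (adjusted p between 0.0186 and 0.0445, edgeR) and CENPE without PELP1-KD replicate 1 (adjusted p = 0.0411, edgeR). With GC content and length corrected as well, KIF18B was at −0.037 and not called (adjusted p = 0.344, edgeR). KIF4A was called higher with the block (0.080, adjusted p = 0.115 and 0.0274). KIF4B is an intronless near-copy of KIF4A, and its 22.9, 31.6 and 30.5 normalized reads in control, against 2738, 2582 and 2619 for KIF4A, cannot be told from reads of KIF4A. KIFC1, a minus-end motor of spindle poles, is annotated on 3 sequences of hg19 that include alternative haplotypes of chromosome 6. Its 38.5, 47.0 and 23.8 reads in control and 26.6, 16.3 and 38.0 in the others are uncertain, because reads of a mapping quality below 2 were not counted.

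**Figure D2:**
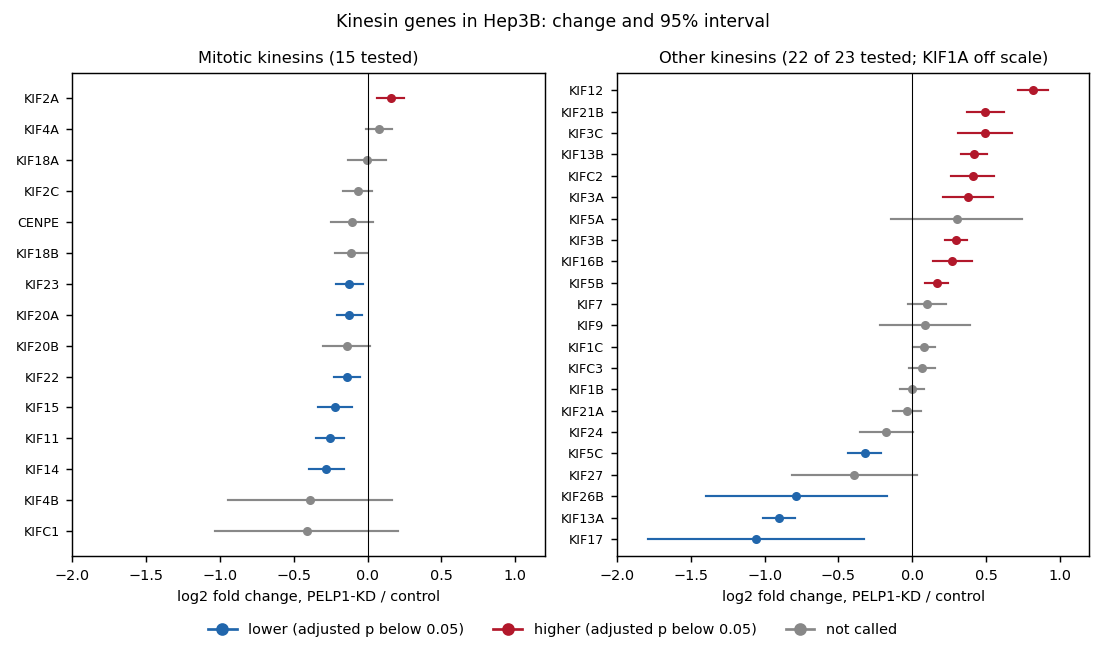
Log2 fold change (x axis, PELP1-KD over control) of the tested kinesins, 1 row a gene, with points for the estimate and bars for the 95% interval, colored by the call at an adjusted p below 0.05. In the left panel, 13 of 15 mitotic kinesins (CENPE included) lie to the left of 0, 6 of them called lower, and KIF2A is the 1 called higher. In the right panel, 9 of the other kinesins are called higher, and KIF1A at −4.80 is off the scale.

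Many promoters of the mitotic members carry the letters of the cell cycle genes homology region (CHR), an element through which DREAM and MYBL2-FOXM1 complexes are known to regulate G2 and M phase genes. RefSeq promoters (GRCh38.p14, 250 bases before to 50 after the gene start) were found for 61 of the 77 members. The letters TTTGAA, read on both strands, stand in 22 of 42 promoters of the mitotic classes (52.4%), in 1 of 19 of the other kinesins (5.26%) and in 18.2% of all 27305 genes with a promoter (14.3% of the 9865 tested ones). CCAAT, on both strands, stands in 66.7%, 36.8% and 39.7% of them (43.1% of the tested ones). The second CHR form, TTTAAA, stands in 19.0%, 5.26% and 14.5% (11.4% of the tested ones). The E2F letters TTTCGCG or TTTGGCG stand in 7.14%, 15.8% and 3.85% (6.25% of the tested ones). A match is a description of the letters and not a tested site. Of the 22 mitotic members with TTTGAA, 12 were called lower and 1 higher, with a median log2 fold change of −0.20. Of the 19 tested mitotic members with a promoter but without TTTGAA, 6 were called lower and 2 higher, with a median of −0.11. Of all tested genes, 26.8% were called lower and 26.8% higher. The sets with and without TTTGAA were not compared by a test.

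Promoter stretches of 9 members called lower are shown because they hold TTTGAA (or TTCAAA on the other strand) close to the gene start, in a window that ends at most 30 bases past it. Each is 76 bases long, 5′ to 3′ on the strand of the gene. Capitals mark these letters and CCAAT (or ATTGG).
KIF11: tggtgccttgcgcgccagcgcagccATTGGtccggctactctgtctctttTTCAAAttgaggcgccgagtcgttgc
KIF14: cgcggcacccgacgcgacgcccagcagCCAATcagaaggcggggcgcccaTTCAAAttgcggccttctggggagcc
KIF15: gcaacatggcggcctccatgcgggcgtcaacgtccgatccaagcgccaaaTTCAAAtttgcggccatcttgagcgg
KIF23: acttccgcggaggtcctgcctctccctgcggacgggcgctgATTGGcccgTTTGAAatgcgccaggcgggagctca
PLK1: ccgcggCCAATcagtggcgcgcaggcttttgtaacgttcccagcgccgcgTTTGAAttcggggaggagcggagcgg
CDCA8: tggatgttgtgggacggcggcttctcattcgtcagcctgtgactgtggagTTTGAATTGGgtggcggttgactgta
INCENP: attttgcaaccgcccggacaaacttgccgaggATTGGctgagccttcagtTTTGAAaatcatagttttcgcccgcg
BUB1B: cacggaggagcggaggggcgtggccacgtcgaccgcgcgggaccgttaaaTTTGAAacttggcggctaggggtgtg
SPC25: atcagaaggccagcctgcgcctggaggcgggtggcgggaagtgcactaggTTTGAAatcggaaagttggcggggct
They lie in GRCh38.p14 at chr10:92593052-92593127 for KIF11, chr1:200620725-200620800 for KIF14, chr3:44761709-44761784 for KIF15, chr15:69414244-69414319 for KIF23, chr16:23678810-23678885 for PLK1, chr1:37692443-37692518 for CDCA8, chr11:62123951-62124026 for INCENP, chr15:40160996-40161071 for BUB1B and chr2:168890408-168890483 for SPC25, with KIF14 and SPC25 on the minus strand and the others on the plus strand. The motif begins between 55 bases (KIF23) and 3 bases (SPC25) before the start of the gene, except in KIF14, where it begins at base 2 of the gene. A CCAAT or ATTGG lies in the stretch of 6 of the 9, KIF11, KIF14, KIF23, PLK1, CDCA8 and INCENP, and in CDCA8 it begins with the last base of the CHR letters. The arrangement is not particular to members called lower. NDC80, CENPA, KIF18A and KIF18B, which were not called, and CENPN, which was called higher, also hold the CHR letters close to the gene start. KIF18A, KIF18B and CENPN have CCAAT or ATTGG in that window too. Beside these, KIF4A and its copy KIF4B hold the same arrangement of ATTGG and TTTGAA.
KIF4A: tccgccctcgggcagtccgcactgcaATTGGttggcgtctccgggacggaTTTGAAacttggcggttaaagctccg
KIF4B: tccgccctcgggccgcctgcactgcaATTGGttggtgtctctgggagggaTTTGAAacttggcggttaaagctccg
These stretches, at chrX:70290020-70290095 and chr5:155013708-155013783 on the plus strand, are identical at 70 of 76 positions.

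CENPJ was the 1 member above 100 reads that fell by at least 2-fold. It encodes a protein of the centriole, where it sets the length of new centrioles, and carries the CENP name without being part of the kinetochore. On chromosome 13 of hg19 from 25456412 to 25497085, it had 776, 754 and 706 normalized reads in control and 356, 363 and 322 in the PELP1-KD-labelled libraries. The means were 746 ± 36.1 and 347 ± 22.2 (SD, n = 3 each), which is 46.5% of control (log2 fold change −1.11 ± 0.072 SE, adjusted p = 1.07e-10). Genes around it were lower too. Of 6 tested genes within 1 Mb, 4 were called lower and 0 higher, against 26.8% and 26.8% of all tested genes. Their median was −0.80, and the 4 called lower were NUPL1 (−1.04), PARP4 (−0.90), MTMR6 (−0.87) and SPATA13 (−0.73). The median of all 239 tested genes of chromosome 13 was −0.053.

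KIF13A stood in a like setting. It carries endosomal cargo, lies on chromosome 6 of hg19 from 17760585 to 17987799, and had 1584, 1497 and 1616 normalized reads in control and 806, 829.6 and 876 in the PELP1-KD-labelled libraries (log2 fold change −0.90 ± 0.053 SE, adjusted p = 2.21e-11). This is 53.5% of control. Of 10 tested genes within 1 Mb of it, 7 were called lower and 0 higher, against 26.8% and 26.8% of all tested genes. Their median was −0.54, and RNF144B (−3.25) and FLJ23152 (−2.13) fell further than KIF13A. Chromosome 6 as a whole had a median of −0.099 over 713 tested genes. Around SPC24, 19 of its 56 tested neighbors were lower and 7 higher, with a median of −0.12. Among them, C19orf80 (−4.0), KANK2 (−0.89) and SLC44A2 (−0.86) fell further than SPC24 (−0.76). CENPQ, also on chromosome 6, had 2 tested neighbors, MUT at −0.70 and C6orf141 at 0.91. Why neighbors moved with CENPJ and KIF13A, and some with SPC24, was not tested.

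**Figure D3:**
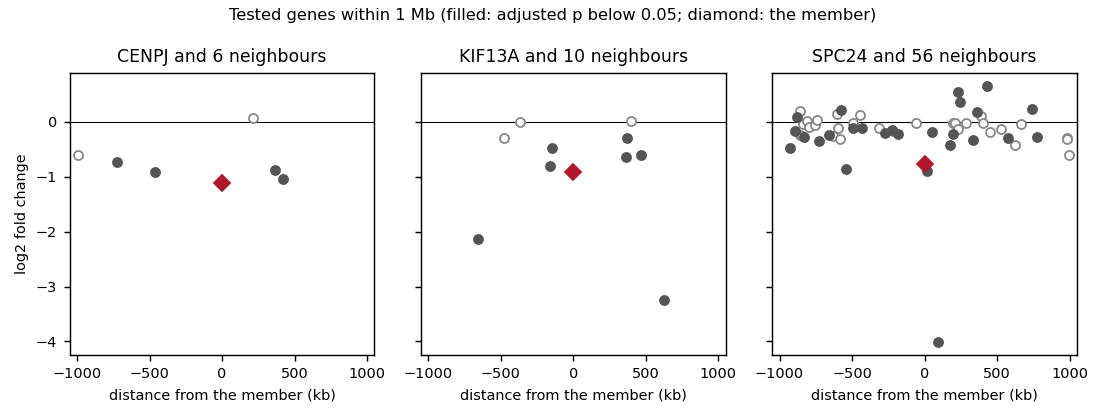
Log2 fold change (y axis, PELP1-KD over control) of tested genes within 1 Mb of CENPJ, KIF13A and SPC24 against the distance in kb between the lower coordinates of the 2 genes (x axis), with filled circles for an adjusted p below 0.05, open circles for other genes and a diamond for the member. Circles around CENPJ (4 of 6) and KIF13A (7 of 10) are called lower and none is called higher, while those around SPC24 lie on both sides of 0. Of all tested genes, 26.8% were called lower and 26.8% higher.

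KIF13B, the paralog of KIF13A, moved in the opposite direction. It carries membrane cargo with the scaffold DLG1 and had 2248, 2370.2 and 2459 normalized reads in control and 3111, 3154 and 3195 in the PELP1-KD-labelled libraries (log2 fold change 0.42 ± 0.043 SE, adjusted p = 8.18e-08). The 95% intervals were 0.33 to 0.51 for KIF13B and −1.01 to −0.79 for KIF13A. Per length, the control levels were near each other, 8.56 RPKM for KIF13B and 7.71 for KIF13A, and in the PELP1-KD-labelled libraries they were 11.4 and 4.12.

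KIF12 had the largest rise among the 72 tested members. It is expressed in liver and kidney and has been linked to cholestatic liver disease. KIF12 lies on chromosome 9 of hg19 from 116853918 to 116861337 and had 1435, 1470.3 and 1511 normalized reads in control and 2452, 2610.2 and 2723 in the PELP1-KD-labelled libraries. With means of 1472 ± 38.2 and 2595 ± 136 (SD, n = 3 each), it was at 176% of control (log2 fold change 0.82 ± 0.047 SE, adjusted p = 1.72e-11). Of its 24 tested neighbors within 1 Mb, 6 were lower and 7 higher, against 26.8% and 26.8% of all tested genes.

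Of the 4 kinesin-2 genes, 3 were called higher and 1, KIF17, lower, against 26.8% and 26.8% of all tested genes. KIF3A pairs with KIF3B or KIF3C and drives transport in cilia. The motor gene KIF3B, on chromosome 20 of hg19 from 30865454 to 30922811, had 5546, 5346 and 5426 normalized reads in control and 6684, 6672 and 6701 in the PELP1-KD-labelled libraries (log2 fold change 0.30 ± 0.035 SE, adjusted p = 5.16e-07). KIF3A had 311, 292 and 276 and 401, 382 and 359.6 (log2 fold change 0.38 ± 0.081 SE, adjusted p = 0.000581), and KIF3C had 271, 245 and 257 and 356, 335 and 396 (log2 fold change 0.49 ± 0.086 SE, adjusted p = 7.23e-05). For all 3 genes the 6 values separated by group. At 28.3 RPKM in control, KIF3B stood far above KIF3A (1.49) and KIF3C (1.51). KIFAP3, which encodes the subunit that joins the KIF3A and KIF3B pair, was not called (0.064, adjusted p = 0.431). KIF17 went the other way, by log2 fold change −1.06 ± 0.35 SE, adjusted p = 0.0157, on few reads that are given below.

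Kinesin-1 heavy chains, which move vesicles and mitochondria with the light chains KLC1 to KLC4, went both ways. KIF5B, the chain of most tissues and the most expressed kinesin per length at 65.6 RPKM, had 12319, 12207 and 11889.7 normalized reads in control and 14074, 14077 and 12665 in the PELP1-KD-labelled libraries (log2 fold change 0.16 ± 0.039 SE, adjusted p = 0.00131). KIF5C, known best from neurons, fell from 1117, 1089.8 and 1079 to 884, 840.1 and 899.9 (log2 fold change −0.32 ± 0.053 SE, adjusted p = 3.27e-05). KIF5A was rare and was not called (0.30, 95% interval −0.14 to 0.75). Among the light chains, KLC4 (0.36, adjusted p = 5.76e-06) and KLC2 (0.15, adjusted p = 0.00594) were called higher and KLC1 was not (0.019, adjusted p = 0.731, edgeR).

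Of the remaining kinesins of other roles, KIF21B (0.49, adjusted p = 8.72e-07), which slows microtubule growth, KIFC2 (0.41, adjusted p = 5.67e-05) and the endosomal motor KIF16B (0.27, adjusted p = 0.0012) were called higher. KIF1C, an abundant carrier of vesicles at 59.0 RPKM in control, had 14509.6, 14281 and 15273 normalized reads in control and 14962, 15392 and 16238 in the others. Its log2 fold change of 0.081 was not called (adjusted p = 0.0667, edgeR), but was called with the block (adjusted p = 0.00114), with no filter on low counts (adjusted p = 0.041) and without control replicate 3 or PELP1-KD replicate 1 (adjusted p between 0.0167 and 0.0168, edgeR). KIFC3 was called higher only with the block (adjusted p = 0.187 and 0.0431). KIF1B and KIF21A, also well expressed, had log2 fold changes of −0.0033 and −0.038. KIF7, KIF9, KIF24 and KIF27 were not called, with log2 fold changes of 0.099, 0.087, −0.18 and −0.39. With the block and the GC and length correction, KIF7 was called higher at 0.18 (adjusted p = 0.000467) and KIF24 lower at −0.20 (adjusted p = 0.021, edgeR).

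**Figure D4:**
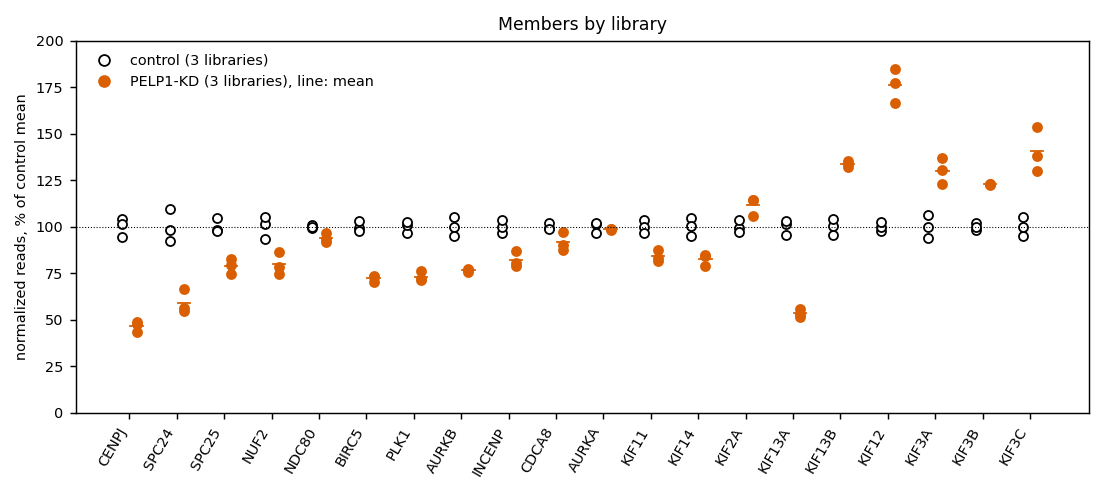
Normalized reads of 20 members in each library as a percentage of the control mean (y axis), with open circles for the 3 control libraries, filled circles for the 3 PELP1-KD-labelled libraries and a line for their mean. CENPJ at 46.5% and KIF13A at 53.5% are lowest, KIF12 at 176% is highest, and filled and open circles overlap for AURKA.

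The other 2-fold falls were those of KIF1A and KIF17, which were rare. KIF1A, a motor of synaptic vesicle precursors in neurons, was at 22, 27 and 24 reads in control and 0, 2 and 0 in the PELP1-KD-labelled libraries. The ratio of the summed reads after scaling was 32.5, with an exact 95% counting interval of 8.68 to 274 (log2 fold change −4.80 ± 0.63 SE, adjusted p = 2.67e-06). Without PELP1-KD replicate 2, which holds both of those reads, the fitted value became −7.57. KIF17, a ciliary motor, had 21, 27 and 27 and 10, 5 and 17 reads (log2 fold change −1.06 ± 0.35 SE, adjusted p = 0.0157), a ratio of 2.09 with an interval of 1.36 to 3.26. Its call was lost without control replicate 2, control replicate 3 or PELP1-KD replicate 2 (adjusted p between 0.0513 and 0.0838, edgeR). KIF26B had 25, 30 and 32 and 15, 10 and 20 reads (log2 fold change −0.78 ± 0.29 SE, adjusted p = 0.0296), and its call was lost without control replicate 2, control replicate 3, PELP1-KD replicate 1 or PELP1-KD replicate 2 (adjusted p between 0.0707 and 0.117, edgeR) and with DESeq2 (adjusted p = 0.0893). KIF6, KIF19, KIF25, KIF26A and KIF2B did not pass the filter on low counts. Of these, KIF6 had 12, 8 and 8 reads in control and 1, 2 and 1 in the others, or 6.24-fold more reads in control, with an interval of 2.18 to 24.5. KIF25 had 12 and 7 reads in all, KIF19 had 1 and 0, and KIF26A had 0 in each library.

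The same calls and values were recounted on members with at least 100 normalized reads on average, a mean taken over all 6 libraries. As a subset of the counts above, this is not a separate test. In that set of 64 genes, 25 were called lower and 12 higher (39.1% and 18.75%). Over all tested genes, which include rarer ones, the shares were 26.8% and 26.8%. The 45 mitotic members within it had 22 lower and 3 higher. In each PELP1-KD-labelled library, 33, 34 and 38 of these 45 lay below their control mean. The same held for 16, 19 and 32 of them in control replicates 1, 2 and 3, so control replicate 3 came close to the PELP1-KD-labelled libraries by this count. In the PELP1-KD-labelled libraries the median log2 ratio to the control mean was −0.13, −0.13 and −0.20 for replicates 1, 2 and 3. The control libraries had medians of 0.011, 0.0097 and −0.025, which are held small because the ratio is to their own mean. Over the 18 other kinesins of that level, the medians were 0.15, 0.23 and 0.18 in the PELP1-KD-labelled libraries and 0.019, −0.026 and 0.024 in control. Summed RPKM of the 45 mitotic members was 1032, 1028 and 1022 in control and 919.8, 929.99 and 928.5 in the others. The sum over the 18 other kinesins was 279.997, 276.5 and 282.7 in control and 317, 319 and 322 in the others. Both sums separated the groups, but abundant genes weigh most in a sum. In group means, KIF12 alone rose from 23.4 to 41.2 RPKM, KIF5B from 65.6 to 73.5 and KIF3B from 28.3 to 34.8. Of the 18 other kinesins, 9 were called higher and 2 lower.

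Partner genes outside the 77 were lower on balance, but these lists were chosen with earlier results of these data known. They are thus no independent evidence. Of 27 tested kinetochore partners, 12 were called lower and 0 higher (44.4% and 0%, against 26.8% and 26.8% of all tested genes). The median log2 fold change was −0.14. MLF1IP, which encodes CENP-U of the inner kinetochore, had 916, 971 and 915 normalized reads in control and 645, 606 and 635 in the PELP1-KD-labelled libraries (log2 fold change −0.57 ± 0.058 SE, adjusted p = 8.24e-08). MAD2L1BP (−0.58, adjusted p = 5.53e-06), whose product removes MAD2 from the checkpoint complex, and PMF1 (−0.29, adjusted p = 7.07e-06), a subunit beside MIS12, followed. Of other centromere proteins under older symbols, those not called were ITGB3BP (−0.19, adjusted p = 0.0879), APITD1 (0.12, adjusted p = 0.191) and STRA13 (−0.049, adjusted p = 0.464, edgeR), whereas CENPC1 was called lower (−0.38, adjusted p = 0.000446).

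A list of 25 partners of the spindle and of cytokinesis also held AURKAIP1 and the kinesin subunits KIFAP3, KLC1, KLC2 and KLC4. Of the 25, 11 were called lower and 4 higher (44% and 16%, against 26.8% and 26.8% of all tested genes). The median was −0.11. TACC3 (−0.45, adjusted p = 3.36e-08) and ASPM (−0.41, adjusted p = 2.18e-07) of the spindle and ECT2 (−0.47, adjusted p = 2.18e-07), the exchange factor that KIF23 and RACGAP1 bring to the cell equator, had the smallest p values of those lower. Of the higher ones, KLC4 and KLC2 are kinesin light chains, and AURKAIP1 (0.13, adjusted p = 0.0176, edgeR) is now known from the mitochondrial ribosome. The remaining one was CDC25C (0.17, adjusted p = 0.0469, edgeR). Of 14 regulators and markers of G2 and M phase, 7 were lower and 1 higher (50% and 7.14%), with a median of −0.15. CCNB2 (−0.47, adjusted p = 1.43e-07), MYBL2 (−0.27, adjusted p = 2.8e-06) and CCNA2 (−0.27, adjusted p = 8.61e-06) had the smallest p values. RBL2, the p130 protein of the repressive DREAM complex, was the one called higher (0.21, adjusted p = 0.00262, edgeR).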

How the data were processed

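RNA-seq libraries of Hep3B cells (3 control, 3 labelled PELP1-KD) were grouped by the treatment in their labels. The authors deposited estimated counts per gene, 1 table per library, without normalization. Per the file headers, featureCounts v1.5.0-p1 counted by strand and in pairs over exons of hg19, with a minimum mapping quality of 2, and divided reads of several places or genes into fractions. The submitters' processing notes name HISAT2, whereas the paper's methods name TopHat2 and HTSeq. Between 10.6% and 13.3% of a library's values were not whole, and values were rounded before testing. Overlapping genes and near-copies are less certain as a result.

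All genes passing filterByExpr (14537) were fitted with edgeR 4.0.16 in R 4.3.3 (TMM, glmQLFit robust, glmQLFTest, Benjamini-Hochberg). DESeq2 1.42.0 was an alternative. Thresholds were an adjusted p below 0.05 and, where stated, a log2 fold change of 1. Standard errors (SE) were derived from the fold change and the root of F, and 95% intervals use the fit's total degrees of freedom. RPKM uses the exon length of the tables (1 sequence for KIFC1). The median standard error of a log2 fold change was 0.063. Replicates differed by more than sampling noise (chi-square per degree of freedom 1.93 to 6.93). The tests were tried on simulated counts with few changed genes and no shared replicate effects. Unlike these data in both respects, that trial cannot show how often calls here are wrong.

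Replicate numbers come from the titles. Same-numbered libraries of both groups deviated together over 6370 genes (correlations 0.336, 0.247 and 0.666), so they were taken as pairs for the block. This was read from the same data as the calls. Control replicate 2 was closer to PELP1-KD replicate 1 (0.418), and control replicate 1 with PELP1-KD replicate 2 gave 0.244. The pairs of replicates 1 and 2 are therefore uncertain, as are calls made only with the block.

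Members and lists were chosen with earlier results of these data known. Counts for the passenger complex, the Ndc80 complex and the kinesin families were made beside the role classes of the design. The kinesin-3 set, not described as a set above, had 3 of 7 genes called lower and 2 higher, against 26.8% and 26.8% of all tested genes. Values by library are given for PELP1, BIRC5, members changed 2-fold, the 3 smallest p values per class and direction, and the 2 highest RPKM per class. INCENP, CDCA8, AURKA, KIF3A, KIF3C, KIF4A, KIF4B, KIFC1, KIF6, KIF26B, MLF1IP and the neighbors of members were added after their values had been seen. GC content was read from GRCh37, which has the chromosome coordinates of hg19. Promoters were taken from RefSeq (GRCh38.p14) by symbol.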

Additional observations from a re-analysis of the deposited data

How the results depend on the processing

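Counts held under most alternatives. Between 24 and 31 members were called lower and 11 to 12 higher when 1 library was left out. Over all genes, 6766 to 7938 were then called in either direction, against 7788 with all 6 libraries. With DESeq2, 27 and 12 members were called, against 24.6% and 23.6% of all tested genes, and 39 of the 40 calls were kept. Another scaling gave 28 and 12, with 7789 or 7801 of 14537 tested genes called in either direction. The replicate block gave 35 and 15, against 30.4% and 30.4% of all tested genes. The 40 calls were kept with each. The block changed no call other than those named with it above. With the block plus the GC and length correction, the counts were 33 and 18, against 30.0% and 33.0% of all tested genes. The 40 calls were kept, and KIF2C (−0.081, lower), BUB3 (0.064, higher) and CENPM (0.10, higher) were called there as well. An adjusted p below 0.01 left 23 and 11, with 6038 of 14537 tested genes called in either direction. The count lower by at least 2-fold became 1 under a minimum of 10 reads per library and 1 under a mean of at least 1 RPKM, because KIF1A and KIF17 were then not tested, 2 to 3 with a library left out and 4 without a filter.

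Median log2 fold changes moved more. Leaving out 1 library gave −0.14 to −0.12 for mitotic kinesins, 0.048 to 0.15 for other kinesins, −0.10 to −0.055 for CENP genes and −0.39 to −0.25 for the kinases and passenger complex. The block with the correction gave −0.11, 0.15 and −0.048 for the first 3. Other kinesins stood at 0.17 with at least 1 RPKM. Of members not called, 5 changed sign. KIF18A was at 0.033 with the block and correction and between −0.073 and 0.051 with a library left out, CENPB at 0.019 with the block and correction, KIF1B between −0.021 and 0.011, DSN1 between −0.024 and 0.095 and KIF9 between −0.032 and 0.20 with a library left out. Apart from the members not tested, the cause was not tested. Depth limits the members under 100 reads, whose 95% intervals are wide.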
